A study of Mus musculus with 18 samples.

Results

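The genes described here are the nuclear-encoded subunits of the respiratory chain and ATP synthase, with their assembly factors and tissue-specific variants, in mouse cerebral tissue after a stroke made by light. They were chosen by name alone from the deposited gene table: every entry whose symbol begins with Nduf, Uqcr, Atp5, Cox4, Cox5, Cox6, Cox7 or Cox8, and Sdha, Sdhb, Sdhc, Sdhd, Cyc1 and Cycs. The rule matched 98 entries, and 5 pseudogenes (names ending in -ps) were left out, so 93 of 34921 complete entries remained. By role these are 7 core, 29 accessory and 8 assembly genes of complex I, 4 genes of complex II, 9 of complex III, cytochrome c itself, 11 main and 8 variant genes of complex IV, 15 genes of ATP synthase (complex V) and Atp5s, a coupling factor.

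Total RNA was sequenced from micro-punches of brain taken on a cryostat under guidance of magnetic resonance images, from male C57BL/6 mice aged 9 weeks. The stroke groups were right-sided punches taken 4 h, 1 day, 3 days and 10 days after photothrombosis, in which rose bengal in the blood is excited by green laser light and closes the vessels below. The controls were right-sided punches from sham-treated mice and left-sided (contralateral) punches. Each of the 6 groups held 3 mice, with 1 library a mouse within a group, and p-values measure the spread among these mice. The labels are at odds on the left punches: the protocol takes them from mice with a stroke, while the disease state given for them is sham, and whether a left punch shares a mouse with a right-sided library is not given. Levels are given as FPKM, a read-based unit scaled to transcript length and library size; the number of reads behind a value is unknown, so no counting interval is given. Library numbers below are those of the sample titles, and the labels do not say what the numbers stand for.

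Several libraries stood apart before any group was compared. Mitochondrially encoded RNA took 24.4% to 44.6% of summed FPKM, highest in 10 day library 5, and agreement with the other 2 libraries of the same group (mean correlation over genes) was lowest for 10 day library 5 (0.933) and left library 5 (0.941). In 5 of the 6 groups the library with the highest number was also the lowest for most of the genes described here: left library 5 for 82 of the 92 tested, 4 h library 6 for 85, 1 day library 4 for 81, 3 day library 8 for 82 and 10 day library 5 for 87. In sham right, library 2 was lowest for 69 of 92, by a smaller margin. The medians over all 92 genes are given with and without those libraries. The medians per complex include them; at 10 days, for example, the library medians of the complex I core and accessory genes and of the main genes of complexes II to V lay between -0.12 and 0.03 in libraries 1 and 2 and between -1.27 and -0.59 in library 5.

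Oxidative phosphorylation passes electrons from NADH (complex I) and succinate (complex II) through ubiquinone, complex III and cytochrome c to oxygen at complex IV, and ATP synthase uses the proton gradient so formed. The complexes are built from a small set of subunits encoded by mitochondrial DNA and many encoded in the nucleus, and neurons depend on them to restore ion gradients. Nuclear respiratory factor 1 (NRF1), ETS-family factors such as GABP, and YY1 are known regulators of many of the nuclear genes.

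Promoters were read because the genes shifted together across libraries. RefSeq windows (GRCm38.p6) from 250 bases before to 50 after a start, 300 bases in all, were found for 75 of the 93 genes, giving 80 windows. The NRF1 core GCGCATGC (GCATGCGC on the other strand) lay in 13 of the 80 windows (16.2%), against 891 of 32851 windows of all genes (2.71%). The YY1 core AAGATGGC, on either strand, lay in 10 (12.5%, against 2.75% of all windows), and the ETS core CCGGAAGT, on either strand, in 5 (6.25%, against 3.89%). A match is a run of letters and no evidence of binding. The comparison windows were those of all genes and were not matched on level or base content. Whether the matches bear on the shifts across libraries was not tested. The 100 bases before the start are shown for 1 gene each of complexes I, II and III, cytochrome c and complex V, 5′ to 3′ on the gene's strand, with the match in capitals: the NRF1 core in all but Uqcr11, where the ETS core is marked. Uqcr11 also holds an NRF1 match, which begins at position -4 and runs across the start, so that it is not whole in the printed piece. In Atp5k 2 NRF1 matches on opposite strands overlap.
Ndufa6: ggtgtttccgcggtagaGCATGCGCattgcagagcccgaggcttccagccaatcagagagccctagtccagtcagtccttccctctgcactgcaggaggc
Sdhb: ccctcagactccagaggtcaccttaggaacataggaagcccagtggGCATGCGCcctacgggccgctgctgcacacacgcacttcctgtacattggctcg
Uqcr11: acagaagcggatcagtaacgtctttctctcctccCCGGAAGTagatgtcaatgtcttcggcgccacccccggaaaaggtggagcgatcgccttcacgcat
Cycs: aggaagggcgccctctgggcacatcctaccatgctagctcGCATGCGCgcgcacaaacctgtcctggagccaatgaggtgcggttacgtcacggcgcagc
Atp5k: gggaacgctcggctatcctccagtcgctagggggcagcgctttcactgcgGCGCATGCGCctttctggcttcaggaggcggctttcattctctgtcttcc
These pieces lie at chr15:82354292-82354391, minus strand (Ndufa6), chr4:140961171-140961270, plus strand (Sdhb), chr10:80406822-80406921, minus strand (Uqcr11), chr6:50566570-50566669, minus strand (Cycs) and chr5:108434400-108434499, minus strand (Atp5k). Counted back from the start, the first capital is at position -83 in Ndufa6, -54 in Sdhb, -66 in Uqcr11, -60 in Cycs and -50 in Atp5k. The 5 genes include short ones (Ndufa6, Uqcr11, Atp5k), at the low end of the 4 h comparison, and Sdhb and Cycs, with smaller shifts there.

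In sham right punches the chain was expressed at high level. Of the 93 genes, 82 had a sham right mean of 10 FPKM or more and 28 of 100 FPKM or more; 92 passed the filter for testing (1 FPKM or more in at least 3 libraries) and 87 reached 1 FPKM in all 18. The 5 tested genes that did not were Cox4i2, Cox6b2, Cox7a1, Ndufa4l2 and Cox8b, and the gene not tested was Cox7b2, a testis form at 0.486 ± 0.0592 FPKM (SD, n = 3). Cox8a, a small subunit of complex IV, was highest at 996 ± 64.6 FPKM, above Cox6a1 at 487 ± 67.6 FPKM. Ndufb9, an accessory subunit of complex I, followed at 275 ± 26.3 FPKM, and its range overlapped that of the next gene, Cox6b1 (249 ± 12.5 FPKM). At the low end stood Cox7b2, Cox6b2 (0.807 ± 0.0727 FPKM, also a testis form) and Cox8b (0.825 ± 0.636 FPKM, the heart and skeletal muscle form).

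Levels differed by complex. The median sham right mean was 207 FPKM over the 11 main complex IV genes, 121 over complex III, 79.3 over complex II, 62.7 over ATP synthase, 58.0 over the complex I accessory genes and 41.8 over its core genes. Complex I assembly factors, which act during building and are not part of the finished enzyme, had a median of 12.1 FPKM, between Ndufaf4 (3.96) and Ndufaf8 (24.5). The variant complex IV genes had a median of 1.48 FPKM, although one of them, Cox7a2l, a factor that joins complexes III and IV into supercomplexes, stood at 130 FPKM. Summed over all 93 genes, sham right libraries held 8934, 8069 and 8893 FPKM, which was 3.31% ± 0.108 (SD, n = 3) of the FPKM of nuclear-encoded genes. The 5 pseudogene entries left out ranged from 0 to 5.11 FPKM in any library, the highest being Ndufab1-ps; how fragments that fit both a gene and such a copy were assigned is not given in the sources used here.

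At 4 h the nuclear-encoded genes lay below sham right almost throughout, but no gene passed the test. Of the 92, 88 had a lower mean than sham right, with a median log2 fold change of -0.47 against 0.01 over all 14016 genes tested. The test was limma on log2(FPKM + 1), with all 8 group contrasts from 1 fit and Benjamini-Hochberg adjustment over all genes. By it 0 of the 92 had an adjusted p under 0.05, where 2.18% of all genes did. An unadjusted p under 0.05 was found for 16 of the 92, all of them lower. Over all 14016 genes it was found for 2306, of which 1147 were higher. The count was thus near the share of all genes, and only its direction differed. All 3 libraries at 4 h lay below all 3 sham right libraries for 62 of the 92 genes (67.4%), against 17.2% of all genes, and 0 of the 92 lay above. Without library 6 the median was -0.29, and the 62 did not rest on that library, since libraries 2 and 3 also had to lie below.

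**Figure D1:**
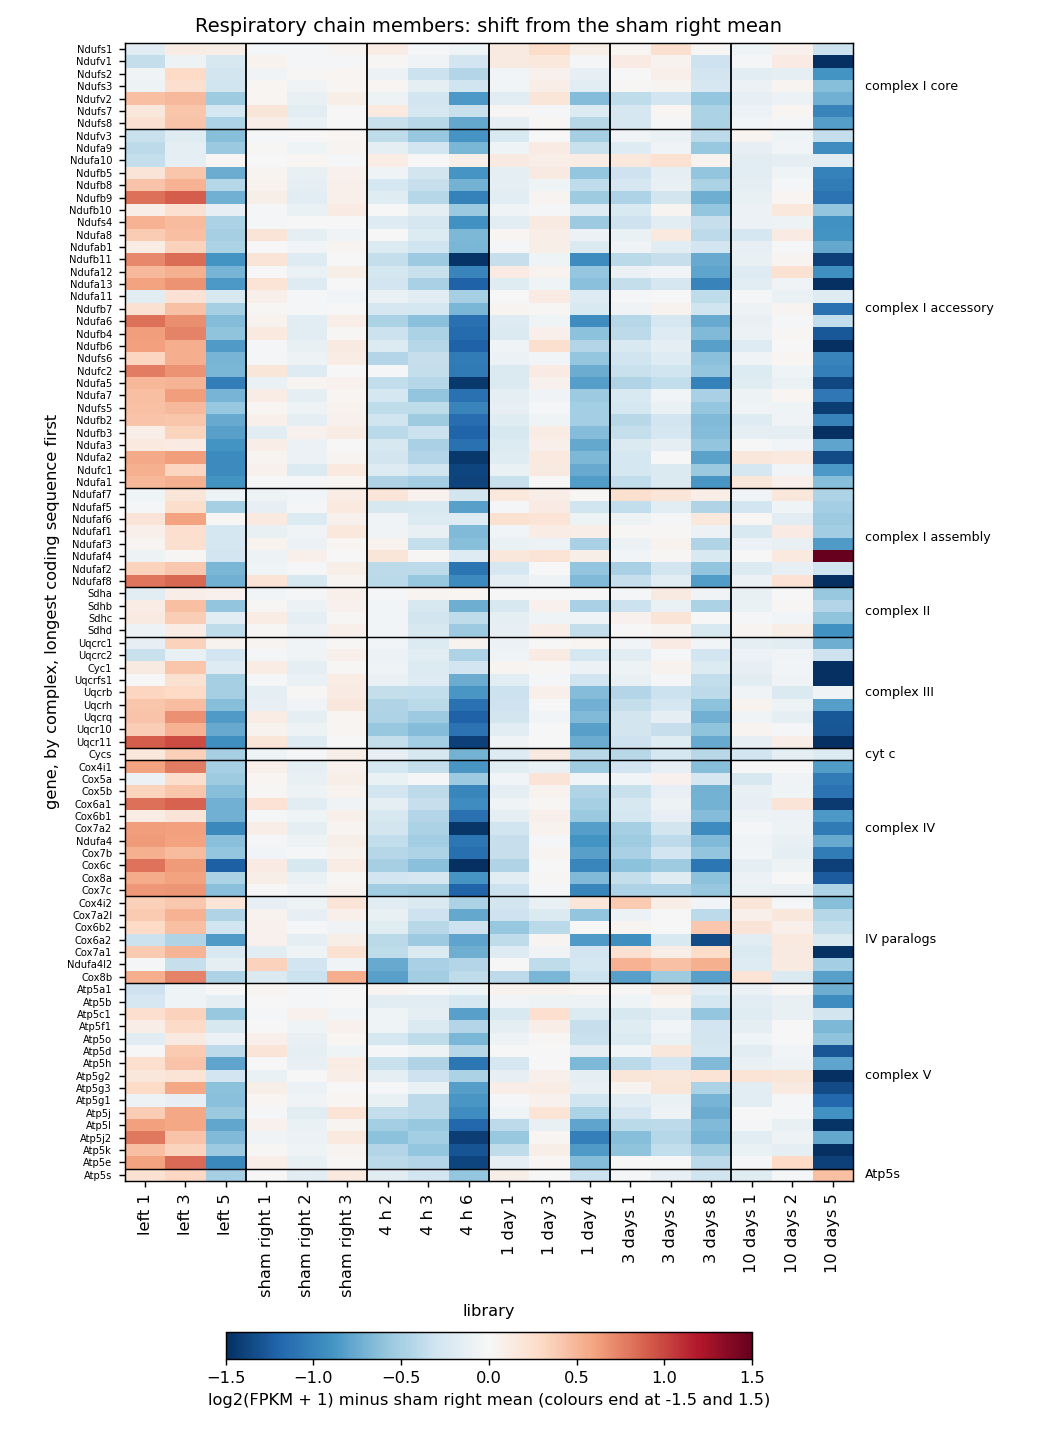
Each row is 1 of the 92 tested genes, by complex and from the longest to the shortest coding sequence, and each column 1 of the 18 libraries; colour is log2(FPKM + 1) minus the sham right mean, blue lower and red higher. The highest-numbered library of the left, 4 h, 1 day, 3 day and 10 day groups is the bluest of its group, and left libraries 1 and 3 are red for most genes; at 4 h the medians of the 3 libraries are -0.22, -0.34 and -0.85.

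The later groups showed the same sign with smaller or less even shifts, and no gene called against sham right. At 1 day the median over the 92 genes was -0.20 (all genes 0.03) and 80 lay below 0. Called were 0 (all genes 1.18%), and 0 had an unadjusted p under 0.05 (all genes 1203 of 14016). At 3 days the median was -0.31 (all genes 0.08), 80 lay below 0 and 0 were called (all genes 7.36%). An unadjusted p under 0.05 was found for 3 (Cox6a2 and Cox8b lower, Ndufa4l2 higher), against 2278 of 14016 genes. At 10 days the median was -0.34 (all genes -0.07), 90 lay below 0 and 0 were called by limma (all genes 7.13%). Here 2 had an unadjusted p under 0.05 (Uqcrc1 and Atp5b, both lower), against 2713 of 14016 genes. At all 3 of these times the unadjusted count was thus below the share of all genes. The 4 comparisons use the same sham right libraries, so their signs are not independent.

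Separation from sham right was of a different kind at each time. All 3 libraries lay below all 3 sham right libraries for 4 of 92 genes at 1 day (4.35%, all genes 8.5%), for 44 at 3 days (47.8%, all genes 9.67%) and for 13 at 10 days (14.1%, all genes 13.2%). At 1 day and 10 days the share was therefore below or near that of all genes, and the low median at 10 days came from library 5: without it the median was -0.06. Leaving out library 4 moved the 1 day median to -0.05, and leaving out library 8 moved the 3 day median to -0.16. All 3 libraries lay above sham right for 3 genes at 1 day (Ndufa10, Ndufaf4 and Ndufs1; 14.3% of all genes) and for 3 genes at 3 days (Atp5g2, Ndufa10 and Ndufa4l2; 27.2% of all genes).

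The left punches had 0 genes called against sham right by limma (0.0285% of all genes). An unadjusted p under 0.05 was found for 2 (Ndufv3 and Cox6a2, both lower), against 1077 of 14016 genes. Of the 92 genes 29 lay below 0, with a median of 0.06 (all genes -0.05). That median joins unlike libraries: the median shift of the 92 genes was 0.30 in left library 1, 0.41 in left library 3 and -0.54 in left library 5. Without library 5 the left median was 0.37.

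Restricting the fit to the 13 libraries numbered 1 to 3, a choice made after the low libraries had been seen, changed the calls. At 4 h, 29 of 92 were then called, all lower (all genes 10.8%), among them Uqcr10 at -0.61 ± 0.09 (SE, adjusted p = 0.00178 by limma), Cox7c at -0.53 ± 0.09 (adjusted p = 0.00423) and Atp5l at -0.54 ± 0.09 (adjusted p = 0.00411). At 3 days 10 of 92 were called, all lower (all genes 11.6%): Cox7c, Ndufa4, Cox7b, Ndufaf2, Uqcr10, Atp5l, Ndufb2, Atp5k, Cox6c and Ndufa5. At 10 days 0 of 92 were called (all genes 10.0%). In the left punches 50 of 92 were called, 49 of them higher (all genes 32.3%), with only 2 libraries in the group. Leaving out low libraries narrows the spread by construction, so these counts describe the 13 libraries and are not the main result.

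**Figure D2:**
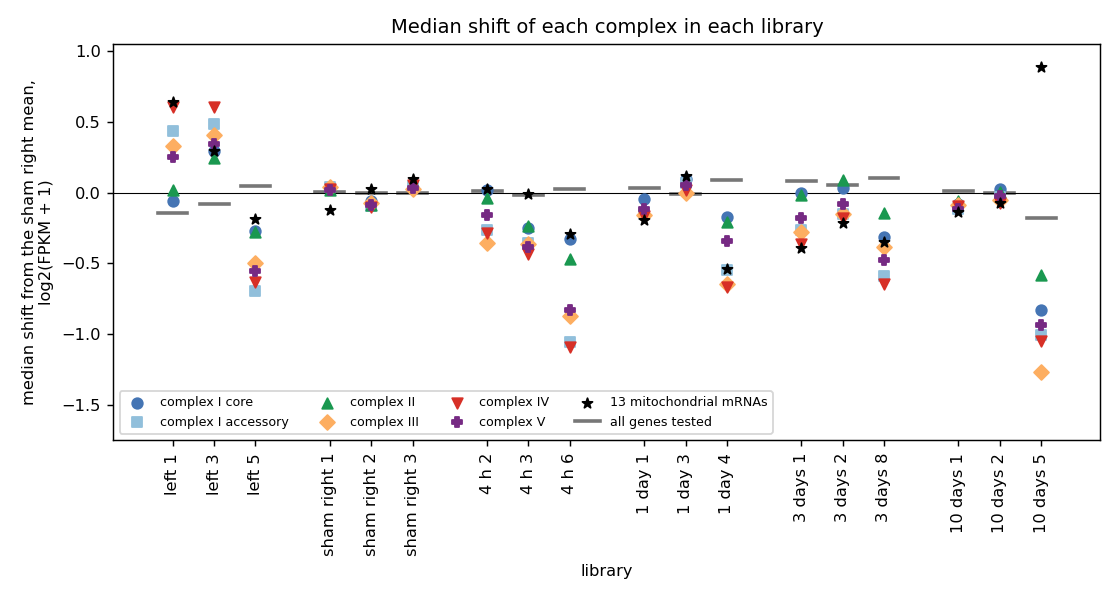
Points give, for each library, the median over the genes of a complex of log2(FPKM + 1) minus the sham right mean; stars are the 13 mitochondrially encoded mRNAs and grey bars all genes tested. In 4 h library 6 and 10 day library 5 the nuclear-encoded complexes lie well below the grey bar, while the star of 10 day library 5 stands at 0.89.

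Among the core genes of complex I, which carry the flavin and iron-sulfur centres and the quinone-side subunits, shifts were small. Their median log2 fold change was -0.15 at 4 h, -0.04 at 1 day, -0.07 at 3 days and -0.31 at 10 days. Ndufs1 (ENSMUSG00000025968, GRCm38 chr1:63143596-63176833), the largest iron-sulfur subunit, measured 19.8, 20.1 and 20.9 FPKM in sham right and 21.9, 20.1 and 19.3 FPKM in 4 h libraries 2, 3 and 6. At 1 day it measured 22.4, 24.8 and 21.6 FPKM, all above sham right, a difference of 0.17 ± 0.12 that did not pass the test (adjusted p = 0.848). Sham right and 4 h overlapped, and the 10 day libraries split into 19.3 and 21.3 against 16.0 FPKM in library 5. Ndufv1, the NADH-binding flavoprotein, had a log2 fold change of -0.11 ± 0.32 at 4 h and -0.54 ± 0.32 at 10 days (adjusted p = 0.375).

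The 29 accessory genes of complex I, which surround the core, had a median of -0.61 at 4 h, close to the -0.60 of the main complex IV genes, with 28 of 29 below sham right, and 4 at an unadjusted p under 0.05 (Ndufa1, Ndufa6, Ndufb2 and Ndufv3). Ndufv3 (ENSMUSG00000024038, chr17:31520115-31531331), an accessory subunit of the NADH-binding arm, came nearest to the threshold of the 92 genes at 4 h. It measured 22.9, 23.3 and 23.7 FPKM in sham right and 17.7, 15.4 and 12.2 FPKM in the 4 h libraries, with no overlap. The difference was -0.61 ± 0.17 (adjusted p = 0.0725 by limma). Without the libraries numbered above 3 it was -0.47 ± 0.09 (adjusted p = 0.00853 by limma). Leaving those out was a choice made after they had been seen to be low, so that p-value adds no evidence. At 1 day its libraries held 19.7, 23.3 and 16.3 FPKM and at 3 days 22.4, 21.7 and 17.5 FPKM, where library 3 at 1 day fell inside the sham right range and the 3 day libraries were all under it.

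Other accessory genes had larger but more variable differences. Ndufb11 stood at -0.79 ± 0.44 and Ndufa1 at -0.78 ± 0.36 at 4 h (adjusted p = 0.385 and 0.294). Ndufb9, the most abundant gene of complex I, measured 291, 245 and 289 FPKM in sham right, 241, 203 and 135 FPKM at 4 h and 487, 513 and 165 FPKM in left libraries 1, 3 and 5. The 4 h libraries were all below sham right, and the left libraries lay on both sides of it. Ndufab1, the mitochondrial acyl carrier protein, measured 9.11, 8.89 and 9.48 FPKM in sham right and 7.78, 7.25 and 5.33 FPKM at 4 h. Ndufa10, a long accessory gene, was an exception in direction, at 28.2, 28.7 and 27.7 FPKM in sham right, 31.0, 30.3 and 30.5 FPKM at 1 day, 31.6, 33.3 and 29.3 FPKM at 3 days and 25.1, 25.5 and 25.2 FPKM at 10 days. Its 1 and 3 day libraries were all above, and its 10 day libraries all below, those of sham right, although no contrast passed the test (0.12, 0.15 and -0.15, each ± 0.11; adjusted p = 0.898, 0.584 and 0.451).

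The 8 complex I assembly genes had a median of -0.29 at 4 h and 0.00 at 1 day. Ndufaf2, which is related to the subunit Ndufa12 and binds a late assembly intermediate, measured 8.80, 9.05 and 9.88 FPKM in sham right and 6.81, 6.78 and 3.79 FPKM at 4 h, below throughout and with an unadjusted p under 0.05 that adjustment did not keep. Ndufaf4 (chr4:24898083-24905001) was level at 4 h (0.00 ± 0.27), and at 10 days its libraries held 3.98, 4.49 and 12.9 FPKM. The log2 fold change of 0.55 ± 0.27 at 10 days (adjusted p = 0.271) rested on library 5 alone, the library in which 49 of the 92 genes had their lowest value of all 18. Ndufaf8 was low in that library, at 3.096 FPKM against 22.9 and 28.4 FPKM in 10 day libraries 1 and 2.

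Complex II, the only complex with no mitochondrially encoded subunit, had a median of -0.25 at 4 h, -0.11 at 1 day, -0.02 at 3 days and -0.22 at 10 days. Sdha (ENSMUSG00000021577, chr13:74322254-74350280), the flavoprotein that oxidises succinate, measured 84.0, 84.8 and 91.3 FPKM in sham right, 85.5, 88.9 and 88.4 FPKM at 4 h and 80.3, 86.3 and 58.2 FPKM at 10 days. The 4 h libraries lay inside the sham right range, 10 day library 5 lay far below it, and the 4 h difference was 0.02 ± 0.14 (adjusted p = 0.968). Sdhb, the iron-sulfur subunit, differed more, with 72.8, 67.8 and 75.3 FPKM in sham right and 69.8, 60.9 and 43.0 FPKM at 4 h (-0.34 ± 0.24, adjusted p = 0.498). Its groups overlapped.

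Complex III had a median of -0.53 at 4 h, with all 9 genes below 0, and -0.27, -0.38 and -0.42 at 1, 3 and 10 days. The long core subunits stayed near sham right, as with Uqcrc1 at -0.07 ± 0.16 at 4 h. The small subunits were lower: Uqcr10 (ENSMUSG00000059534, chr11:4701973-4704342) measured 208, 190 and 204 FPKM in sham right, 135, 128 and 92.8 FPKM at 4 h, 179, 200 and 114 FPKM at 1 day, 166, 157 and 132 FPKM at 3 days and 207, 197 and 81.6 FPKM at 10 days. Every 4 h and 3 day library was below every sham right library, and the 1 and 10 day groups overlapped with sham right through library 3 (1 day) and libraries 1 and 2 (10 days). The 4 h difference was -0.77 ± 0.35 (adjusted p = 0.29). At 10 days Uqcrc1 had an unadjusted p under 0.05 (-0.35 ± 0.16, adjusted p = 0.241).

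Cyc1, cytochrome c1 of complex III, showed how far 1 library could set a mean. It measured 132, 111 and 123 FPKM in sham right and 111, 118 and 24.7 FPKM in 10 day libraries 1, 2 and 5, a log2 fold change of -0.81 ± 0.39 (adjusted p = 0.272). Cycs, somatic cytochrome c, which carries electrons to complex IV and on release from mitochondria takes part in apoptosis, measured 73.0, 74.5 and 81.2 FPKM in sham right and 70.0, 64.3 and 46.4 FPKM at 4 h. At 3 days it measured 56.9, 63.5 and 57.0 FPKM. All libraries of both times were below sham right, but neither the difference at 4 h (-0.35 ± 0.20, adjusted p = 0.401) nor that at 3 days (-0.36 ± 0.20, adjusted p = 0.437) passed.

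The 11 main genes of complex IV were all below sham right in mean at 4 h, 3 days and 10 days, with medians of -0.60, -0.39 and -0.41, and 10 of 11 at 1 day, with a median of -0.27. At 10 days the library medians were -0.09, -0.08 and -1.05, so the group value was carried by library 5. Cox6c (ENSMUSG00000014313, chr15:35925886-35938246), a small subunit of the membrane part, had the lowest 4 h value of the 92 genes. It measured 89.2, 69.4 and 89.0 FPKM in sham right, 57.7, 52.9 and 27.3 FPKM at 4 h, 53.1, 56.2 and 38.1 FPKM at 3 days and 145, 128 and 34.5 FPKM in the left libraries. The 4 h and 3 day libraries were all below sham right, and left library 5 lay below every sham right library while left libraries 1 and 3 lay above them. At 4 h the difference was -0.89 ± 0.47 (adjusted p = 0.361 by limma). Over the libraries numbered 1 to 3 it was smaller, -0.56 ± 0.14 (adjusted p = 0.0256 by limma). That set was chosen after the low libraries had been seen and narrows the spread by construction. Its p-value therefore adds no evidence for Cox6c.

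The most abundant subunits followed the same order of libraries. Cox8a (ENSMUSG00000035885, chr19:7215153-7217616) measured 1053, 926 and 1008 FPKM in sham right, 815, 832 and 539 FPKM at 4 h, 773, 880 and 649 FPKM at 3 days and 1468, 1514 and 716 FPKM on the left. Its 4 h libraries were all below sham right (-0.48 ± 0.33, adjusted p = 0.491). Cox4i1, the ubiquitous form of subunit 4, measured 250, 215 and 247 FPKM in sham right, 197, 185 and 129 FPKM at 4 h and 360, 406 and 168 FPKM on the left. Cox5a, the subunit 5a gene, was flatter, at 56.6, 51.4 and 59.1 FPKM in sham right and 52.0, 54.5 and 37.8 FPKM at 4 h, where the groups overlapped.

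Complex IV has variant subunits that replace the main ones in particular tissues or states, and among these stood the only gene of the 92 that passed the test in any of the 8 comparisons. Ndufa4l2 (ENSMUSG00000040280, chr10:127514967-127517154) is a paralog of Ndufa4, a complex IV subunit once placed in complex I, and is known as a gene induced under hypoxia. It measured 2.33, 1.15 and 1.54 FPKM in sham right, 0.557, 0.870 and 0.931 FPKM at 4 h, 1.61, 1.02 and 1.19 FPKM at 1 day, 2.76, 2.57 and 2.81 FPKM at 3 days, 1.31, 1.89 and 0.847 FPKM at 10 days and 1.60, 1.07 and 1.39 FPKM on the left. The 3 day libraries were the highest 3 of all 18, and the 4 h libraries were all below sham right. It rose from 1 day to 3 days by 0.72 ± 0.18 on the log2(FPKM + 1) scale (adjusted p = 0.0238 by limma), the sole call of 92 in that step, where 5.22% of all genes were called.

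The call for Ndufa4l2 was near the threshold. Leaving out 1 day library 3 or 4 or 3 day library 1 or 8 took the adjusted p to 0.125, 0.0725, 0.0833 and 0.101, with the estimate between 0.63 and 0.82 when any 1 library of the step was left out. Its adjusted p was 0.128 for 3 days against sham right (0.50 ± 0.18), 0.117 for 4 h against sham right (-0.56 ± 0.18) and 0.0627 for 10 days against 3 days (-0.69). With left punches as the control, 3 days gave 0.67 and passed (adjusted p = 0.0241). Relative to Ndufa4, its level was 0.585% to 1.15% in sham right and 1.64% to 2.17% at 3 days, so it remained a small share of the pair. For 1 day against 4 h, 0 of 92 genes were called by limma (all genes 1.23%). There 1 of 92 had an unadjusted p under 0.05, against 1416 of 14016 genes. For 10 days against 3 days 0 were called by limma (all genes 2.02%). There 6 of 92 had an unadjusted p under 0.05, against 2408 of 14016 genes.

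**Figure D3:**
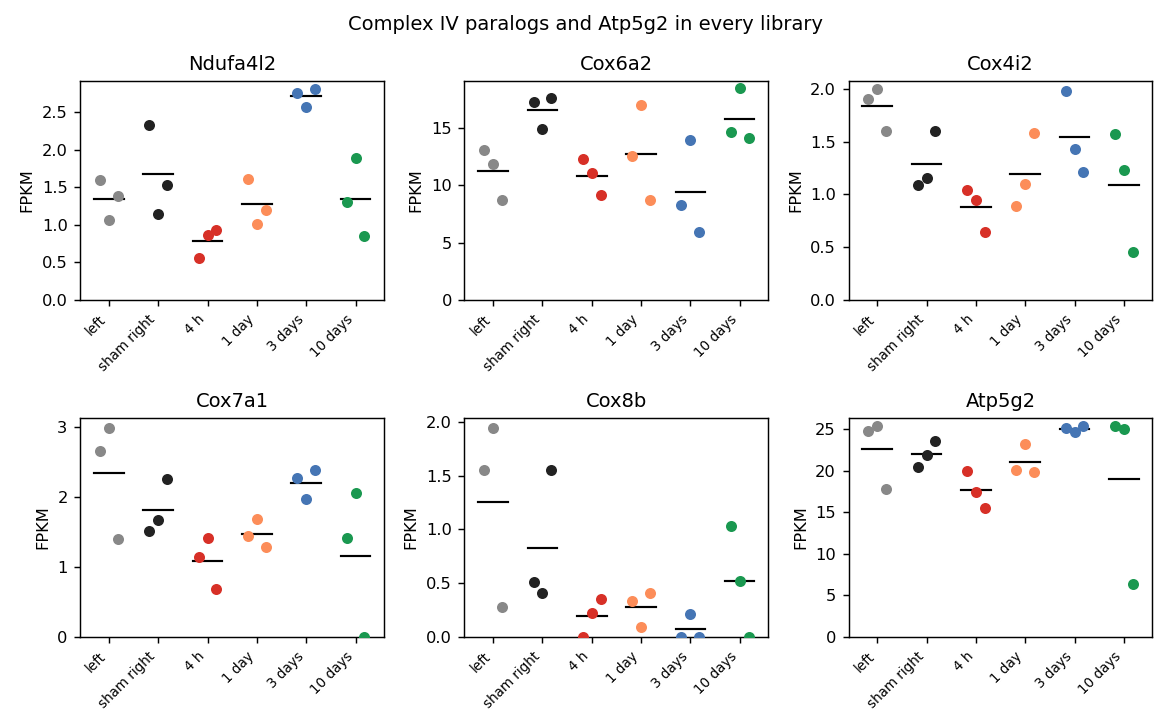
FPKM of 5 complex IV variants and Atp5g2 in each library (points) with the group mean (bar), on linear axes from 0. Ndufa4l2 at 3 days lies at 2.57 to 2.81 FPKM, above every other library, while Atp5g2 at 10 days splits into 25.4 and 25.1 against 6.34 FPKM.

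From 1 to 3 days, 5 of the 7 tested variants had a higher mean (median 0.22), but only Ndufa4l2 passed the test. Cox6b2 measured 0.222, 0.364 and 0.805 FPKM at 1 day and 0.858, 0.805 and 1.39 FPKM at 3 days (0.47, adjusted p = 0.295 by limma; unadjusted p under 0.05). The highest 1 day library (4) was level with the lowest 3 day library (2). Cox6a2 (ENSMUSG00000030785, chr7:128205435-128206387), the heart and skeletal muscle form of subunit 6a, measured 17.3, 14.9 and 17.7 FPKM in sham right, 12.3, 11.1 and 9.18 FPKM at 4 h, 8.28, 14 and 5.94 FPKM at 3 days and 14.6, 18.5 and 14.2 FPKM at 10 days. Its 4 h and 3 day libraries were all below sham right, and at 10 days the groups overlapped. The 3 day difference of -0.83 ± 0.25 had the smallest adjusted p of any gene of the 92 against sham right, 0.0608. As a share of Cox6a1 it was 3.08% to 3.77% in sham right and 2.00% to 3.06% at 3 days.

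Cox4i2, the subunit 4 form found in lung and regulated by oxygen, measured 1.09, 1.16 and 1.60 FPKM in sham right and 1.98, 1.43 and 1.21 FPKM at 3 days (0.15 ± 0.19, adjusted p = 0.796), with overlap. Cox7a1, the muscle form of subunit 7a, had log2 fold changes of -0.44 ± 0.30 at 4 h and 0.20 ± 0.30 at 3 days and was listed at 0 in 10 day library 5. Cox8b was listed at 0 in 3 day libraries 1 and 8 and at 0.212 FPKM in library 2, against 0.512, 0.406 and 1.56 FPKM in sham right (-0.72 ± 0.30, adjusted p = 0.229). At these levels an FPKM of 0 can be a missed estimate.

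The 15 ATP synthase genes were all below sham right in mean at 4 h, with a median of -0.44, and had medians of -0.11, -0.20 and -0.37 at 1, 3 and 10 days. The catalytic head subunits were nearly level at 4 h. Atp5a1, the alpha subunit, measured 211, 201 and 204 FPKM in sham right and 210, 204 and 196 FPKM at 4 h (-0.01 ± 0.17), with overlap. Atp5b, the catalytic beta subunit, measured 231, 226 and 231 FPKM in sham right and 206, 206 and 192 FPKM at 4 h (-0.19 ± 0.18, adjusted p = 0.61), all below. Its 10 day libraries held 205, 212 and 119 FPKM, all below sham right, with an unadjusted p under 0.05 and an adjusted p of 0.229 (-0.40 ± 0.18).

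Small subunits of the membrane part and stalk were lower. Atp5j2 (ENSMUSG00000038690, chr5:145183698-145192062), subunit f, measured 53.5, 52.2 and 61.7 FPKM in sham right, 35.9, 38.9 and 20.4 FPKM at 4 h and 35.4, 41.1 and 33.97 FPKM at 3 days. Both times were below sham right in every library (4 h: -0.84 ± 0.34, adjusted p = 0.228). Atp5e, the epsilon subunit of the stalk, stood at -0.74 ± 0.45 at 4 h (adjusted p = 0.422). The 3 c-subunit genes encode the same mature ring protein and did not run in parallel: at 3 days Atp5g1 was at -0.32 ± 0.27, Atp5g3 at -0.08 ± 0.35 and Atp5g2 at 0.18 ± 0.34, none of which passed. Atp5g2 (ENSMUSG00000062683, chr15:102662864-102672352) measured 20.5, 21.9 and 23.5 FPKM in sham right, 19.9, 17.5 and 15.5 FPKM at 4 h and 25.1, 24.7 and 25.4 FPKM at 3 days, below sham right in all 4 h and above it in all 3 day libraries.

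The size of the shift at 4 h went with the size of the gene product. Over the 92 genes, the median log2 fold change was -0.70 for 22 genes with coding sequences under 300 nucleotides, -0.55 for 31 from 300 to under 500, -0.33 for 26 from 500 to under 1000 and -0.11 for 13 of 1000 or more. Other genes followed the same order with smaller values: -0.28 (244 genes), -0.25 (829), -0.08 (2836) and 0.07 (8289). Spearman's rho of fold change on coding length was taken across genes that share the same libraries. It was 0.773 for the 92 genes and 0.341 for 12198 others at 4 h, and 0.585 and 0.154 at 3 days. At 1 day it was 0.726 and 0.248, and at 10 days 0.283 and 0.033. For the left punches against sham right it was -0.369 and -0.316. A length gradient, of opposite sign, thus also lay between the 2 control groups. The respiratory chain genes are short as a class, with a median coding length of 435 nucleotides against 1380 over all genes tested, and 57.6% under 500 nucleotides against 9.16%.

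Within a length class the chain still stood lower. The other genes were matched on coding length and not on level, and this scale understates fold changes of low genes. Under 500 nucleotides, all 3 libraries at 4 h lay below sham right for 46 of 53 chain genes (86.8%) and 411 of 1073 others (38.3%), and at 3 days for 35 of 53 (66.0%) and 234 of 1073 (21.8%). At 1 day the shares were 5.66% and 13.8% and at 10 days 9.43% and 12.1%, no higher for the chain genes than for others. Their medians were nonetheless lower: under 300 nucleotides -0.34 against -0.14 at 1 day and -0.38 against -0.13 at 10 days, where the 10 day library medians of the 22 chain genes were -0.08, -0.06 and -1.05. Taking the median of each of 20 coding-length classes out of every library, an alternative added after the data were seen, changed the 4 h median from -0.47 to -0.27 and the 3 day median from -0.31 to -0.27. Of the 92 genes, 0 were then called at 4 h (all genes 4.88%) and 1 at 3 days (all genes 8.08%). Fragment or RNA length was not measured, and its part in the result was not tested.

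**Figure D4:**
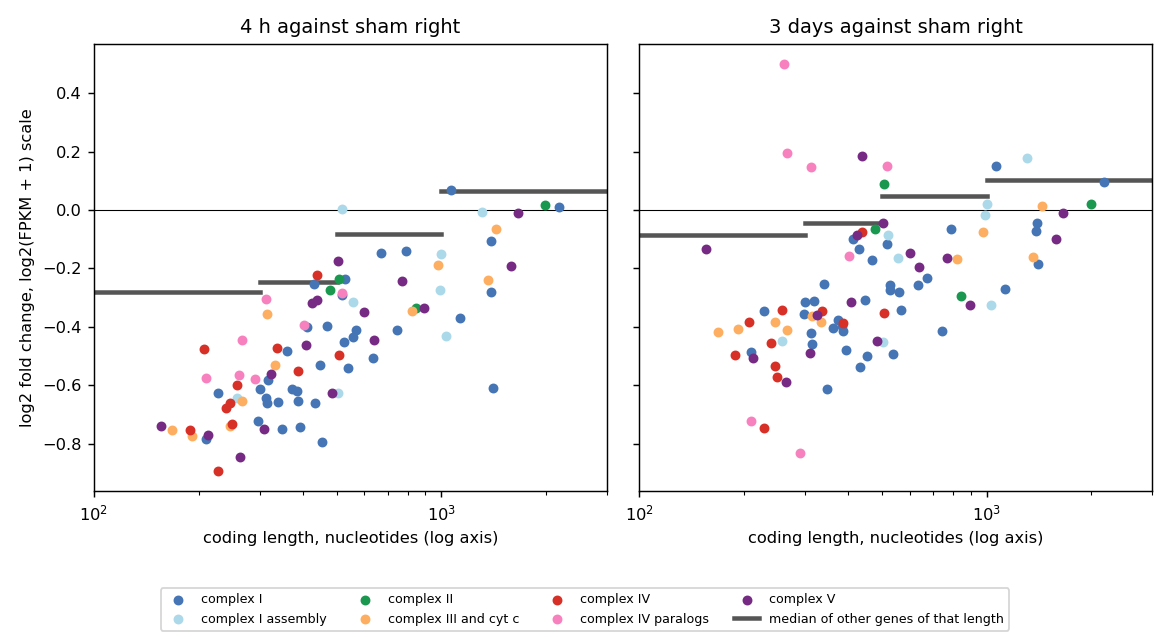
Log2 fold change (log2(FPKM + 1) scale) against coding length in nucleotides (log axis) for each of the 92 genes, at 4 h and at 3 days against sham right; grey bars are the medians of other genes in 4 length classes. At 4 h the points rise from about the -0.70 median of the shortest class to the -0.11 median of the longest, and most points lie below the grey bar of their class.

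The 13 mRNAs encoded by mitochondrial DNA, which supply subunits of complexes I, III, IV and V, did not shift as the nuclear-encoded genes did in every library. By limma 0 of 13 were called against sham right at any time, with 0 at an unadjusted p under 0.05, and their medians were -0.11, -0.20, -0.31 and 0.24 at 4 h, 1 day, 3 days and 10 days, and 0.23 on the left. The 10 day value turned on library 5: the median shift was -0.13 in library 1 and -0.08 in library 2, with 11 of 13 mRNAs below the sham right mean in each. In library 5 it was 0.89, against -0.90 for the nuclear-encoded genes. In 4 h library 6 both were lower, at -0.29 and -0.85, and in left library 1 both were higher, at 0.64 and 0.30.

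Summed over genes, the 93 nuclear-encoded genes held 7297, 6774 and 4689 FPKM at 4 h, 7712, 8812 and 5976 at 1 day, 7084, 7783 and 5842 at 3 days, 8100, 8539 and 4420 at 10 days and 11620, 12300 and 5850 on the left. Only the 4 h and 3 day sums were all below the lowest sham right sum of 8069. The ratio of mitochondrially encoded to nuclear-encoded FPKM was 12.3 ± 1.44 in sham right and 15.8 ± 1.77 at 4 h (SD, n = 3), and in 10 day libraries 1, 2 and 5 it was 12.2, 11.8 and 44.0. FPKM is relative to all RNA in a library, mitochondrial RNA included. Rescaled to nuclear-encoded RNA alone, the medians of the 92 genes were -0.35 at 4 h, -0.14 at 1 day, -0.26 at 3 days and -0.36 at 10 days. The all-gene median at 4 h moved to 0.10 under that scaling.

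**Figure D5:**
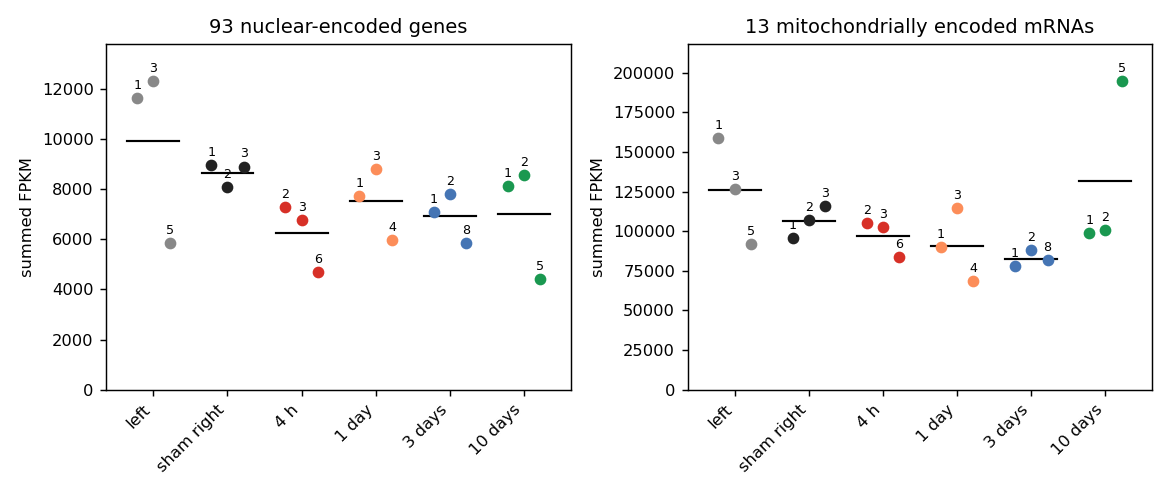
Summed FPKM of the 93 nuclear-encoded genes (left) and of the 13 mitochondrially encoded mRNAs (right) in each library, with library numbers and group means (bars), axes from 0. In 10 day library 5 the nuclear sum is the lowest of all 18, at 4420, and the mitochondrial sum the highest, at 194700.

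Few genes around the chain were called. The 17 tricarboxylic acid cycle genes, which feed it with NADH and succinate, had 0 called by limma in any comparison with sham right (1 to 3 at an unadjusted p under 0.05) and medians of -0.01, 0.03, 0.03 and -0.13 at 4 h, 1 day, 3 days and 10 days. Assembly factors of complexes III, IV and V (27 genes, 0 called by limma, 3 at an unadjusted p under 0.05 at 4 h and 0 later) had medians of -0.18, -0.11, -0.03 and -0.17. The 9 tested regulators of mitochondrial biogenesis, such as the coactivator Ppargc1a, had 0 called by limma (0 or 1 at an unadjusted p under 0.05) and a median of 0.03 at 4 h, and the 11 tested genes of mitochondrial fusion, fission and turnover had 0 called by limma (0 to 2 at an unadjusted p under 0.05) and a median of -0.05 at 4 h. Of 15 uncoupling and carrier genes, only Ucp2, an uncoupling protein abundant in immune cells, was called against sham right. It measured 0.859, 0.894 and 0.878 FPKM in sham right, 6.01, 4.42 and 6.01 FPKM at 3 days and 9.13, 5.84 and 21.3 FPKM at 10 days, and rose by 1.78 ± 0.32 at 3 days (adjusted p = 0.00167) and 2.62 ± 0.32 at 10 days (adjusted p = 3.12e-05).

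RNA of several cell type markers differed from sham right over the same times, and in bulk tissue fewer cells of a type and less RNA per cell cannot be told apart. The 12 neuron markers had 0 called by limma at every time, with 0 at an unadjusted p under 0.05 up to 3 days and 3 at 10 days. Their summed FPKM was 1324 to 1455 in sham right, 1498 to 1571 at 4 h and 1535 to 1612 at 1 day. It was 1247 to 1561 at 3 days and 1270 to 1367 at 10 days. At 4 h and 1 day the sum was thus above sham right in every library. The single markers were mixed: 5, 1, 8 and 10 of the 12 lay below 0 at 4 h, 1 day, 3 days and 10 days. Of 6 endothelial markers, Itm2a (-1.63) and Tek (-1.21) fell at 4 h by limma (adjusted p = 0.000366 and 0.0011), Itm2a fell at 1 day and Pecam1 rose at 3 days. Not all markers of the list went the same way, as 4 of the 6 lay below 0 at 4 h, 3 at 1 day and 1 at 3 days. The 4 h sum of the list was 41.9 to 47.9 FPKM, against 87.4 to 95.0 in sham right and 51.4 to 80.1 on the left. The left punches thus also lay below sham right. On the left all 6 markers were below 0 (median -0.51), with 0 called by limma and 3 at an unadjusted p under 0.05. Reactive astrocyte markers had 1, 5, 5 and 5 of 5 called higher at 4 h (Lcn2), 1 day, 3 days and 10 days, and their sum was 571 to 841 FPKM at 3 days against 55.7 to 65.7. Of 7 tested monocyte and macrophage markers 0, 3, 5 and 6 were called higher, with sums of 598 to 2085 FPKM at 10 days against 16.6 to 23.2. Of the homeostatic microglia markers, Gpr34 and Sall1 fell at 4 h (-1.41 and -0.63) and rose at 10 days (1.83 and 0.79), and Tmem119 and Siglech rose at 3 days (1.02 and 0.60).

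The remaining marker lists held few calls. Resting astrocyte markers had Aqp4 called lower at 4 h (-0.96) and Aldh1l1 called higher at 3 days (0.74). Of the 7 markers in this list, 5 lay below 0 at 4 h and 3 at 3 days. Their summed FPKM was 402.3 to 467.8 at 4 h and 350.8 to 476.5 at 3 days, against 473.5 to 520.9 in sham right. Oligodendrocyte markers had Opalin called lower at 4 h and 1 day (-0.97 and -1.04), with 6 of 7 below 0 at both times. The neutrophil (3 tested), pericyte (5 tested), choroid plexus and red cell lists had 0 called by limma against sham right at any time, although all 3 neutrophil markers had an unadjusted p under 0.05 at 4 h and at 1 day (0 or 1 in the other 3 lists). Choroid plexus RNA was uneven, with sums of 147 to 272 FPKM in sham right, 1.63 to 584 at 4 h and 407 to 632 at 10 days. The part of these cell types in the values of the respiratory chain genes was not tested.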

How the data were processed

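Per the submitters' processing notes, reads were trimmed with Trimmomatic 0.36, aligned to mouse GRCm38 with HISAT2 2.1.0 and quantified with StringTie 1.3.4d; settings and the handling of fragments with several matches are not given in the sources used here. The authors deposited 1 table of FPKM for 34921 complete gene entries (and 1 incomplete last line, not used) in 18 libraries. It also holds p-values and q-values deposited by the authors without named groups, which were not used. The labels call the samples of a group separate mice, and groups come from the labels. The fit treated all 18 libraries as separate mice, although for the left punches this is not given.

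FPKM of 1 or more in at least 3 libraries kept 14016 genes. limma 3.58.1 (R 4.3.3) was fitted to log2(FPKM + 1) with 1 mean per group over all 18 libraries, empirical Bayes with trend and robust options, 8 contrasts and Benjamini-Hochberg adjustment over all genes tested; a call is an adjusted p under 0.05, and ± after a log2 fold change is its SE. Fold changes on this scale understate those of low genes. The fit was tested on simulated data. Coding lengths and coordinates are from GENCODE M21 (GRCm38), to which 34797 entries matched; promoters are RefSeq's. The depth of each library is unknown, since FPKM keeps no read counts.

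The genes and the lists of other genes (mitochondrially encoded mRNAs, tricarboxylic acid cycle, assembly of complexes III to V, regulators, fusion, fission and turnover, uncoupling and carriers, and markers of cell types) were chosen with earlier results of these data known. Genes named are those called, up to 6 of the largest differences in each direction per comparison, a fixed panel of subunits of each complex, the 3 highest and lowest in sham right, and up to 3 called genes per other list and direction; Ndufb9, Ndufa10, Ndufv3, Ndufaf8, Cox7c and Atp5l were further named after their values were seen. Alternatives were other pseudocounts, filters, scalings, controls, fits of 2 groups, a replicate block and single libraries left out, with 2 added after the data were seen. Counts and sums over the microglia list are not reported here.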

Additional observations from a re-analysis of the deposited data

Results flagged for a closer look

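In 3 genes every library of some time lay below sham right and every library of another time lay above it. Over all genes, separation at a single time was common. All 3 libraries lay below sham right for 17.2% of genes at 4 h and 13.2% at 10 days. They lay above it for 14.3% at 1 day and 27.2% at 3 days. How many of all genes did both was not counted, so whether these 3 stand out cannot be said. For Ndufa10, the log2 fold change at 1 day exceeded that at 10 days by 0.27, and that at 3 days exceeded that at 10 days by 0.30. For Ndufa4l2, the log2 fold change at 3 days exceeded that at 4 h by 1.06. For Atp5g2, it exceeded that at 4 h by 0.49. These differences between times were not tested.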

How the results depend on the processing

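Of 92 genes, the number called at 4 h was 0 in the main fit (2.18% of all genes). It was 3 with only the 2 groups fitted (all genes 5.43%) and 1 with a replicate block (all genes 0.756%). Without left library 5 and 10 day library 5 it was 26 (all genes 12.9%). With the libraries numbered 1 to 3 only it was 29 (all genes 10.8%). All of these calls were lower. At 1 day it was 1, lower, with the last of these settings (all genes 3.35%). At 3 days it was 1 after rescaling without mitochondrial RNA (all genes 6.74%) and 15 with only the 2 groups fitted (all genes 13.1%). Without left library 5 and 10 day library 5 it was 2 (all genes 12.6%). With left punches or with both controls as reference it was 2, Ndufa4l2 higher and Cox8b lower, where 1400 and 1399 genes were called in all. It was 1 after centring by coding length (all genes 8.08%) and 10 with libraries 1 to 3 (all genes 11.6%). When a replicate was left out it was 0 to 1. Apart from Ndufa4l2, also called higher without sham right library 1, all calls at 3 days were lower. For the left punches it was 8, all higher, without left library 5 and 10 day library 5 (all genes 19.7%). With libraries 1 to 3 it was 50, of which 1 was lower (all genes 32.3%). Between 1 day and 4 h it was 1 with libraries 1 to 3 (all genes 3.56%). Between 3 days and 1 day, the 1 call (732 among all genes) became 0 with no filter (765 among all genes) and with FPKM of 5 or more (285). It was also 0 with a replicate block (377) and with length centring (662), and 0 to 1 with a replicate left out. With libraries 1 to 3 Ndufa4l2 was lost too (adjusted p = 0.077 by limma) and Cox6b2 was called in its place (all genes 7.86%). Between 10 days and 3 days it was 1 with length centring (all genes 2.9%), and 0 to 1 with a replicate left out. No alternative gave a call at 10 days against sham right. The length centring and the numbering were chosen after seeing the data. The cause of these moves was not tested, except that fits with fewer or less varied libraries estimate a different spread.

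The median over the 92 genes ranged, with a replicate left out, from -0.58 to -0.29 at 4 h, -0.29 to -0.05 at 1 day, -0.41 to -0.16 at 3 days, -0.49 to -0.06 at 10 days and -0.12 to 0.37 on the left. For 10 days against 3 days it was -0.06 as deposited and 0.10 after median-of-ratios scaling, which moved the all-gene median from -0.15 to -0.02. In the paired check, same-numbered libraries had correlations of -0.227 to 0.409 (median 0.0374, 9 of 23 over 0.1). Libraries of other numbers had -0.596 to 0.659 (median -0.0114, 36 of 112 over 0.1). Most same-numbered pairs joined right-sided libraries of different groups, so the check cannot decide whether left punches share mice with right ones. Left and sham right gave 0.219 for number 1 and 0.102 for number 3, and left and stroke libraries of 1 number gave -0.0570 to 0.393. The numbers were not taken as pairs. The replicate block gave medians of -0.30 at 4 h, -0.03 at 1 day, -0.15 at 3 days, -0.04 at 10 days and 0.39 on the left. Depth is unknown, which limits what can be said of Cox8b, Cox7a1 and Ndufa4l2.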
